A study of Homo sapiens with 4 samples.

Results

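The TGF-beta and BMP pathway genes described here are SMURF2, SKI, TGFBR3, ENG and LTBP3, and the values are those of the ZNF416-FLAG peaks nearest to their transcription start sites (TSS). ZNF416 is a zinc finger protein, and the series title presents it as a regulator of how fibroblasts become activated by mechanical input. The members were chosen by their presence in the peak list, that is, a peak counts when the authors' annotation names 1 of the 5 genes as its nearest gene. This gave 6 of the 1386 peaks, 2 at SKI and 1 at each of the other 4 genes. Because a called peak is what chose these genes, their scores, widths and positions are a description and were not tested.

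The material was IMR90, a line of human lung fibroblasts, which expressed ZNF416 with a FLAG tag after lentiviral transduction and puromycin selection. Of the 4 libraries, 2 came from chromatin pulled down with anti-FLAG beads and 2 from input chromatin, and all 4 came from cells that carried the tagged gene. The treatment field names no agent. The promoter that drove the transgene and the level of the tagged protein against the cell's own ZNF416 are not given in the labels or file used here, and no pull-down from cells without the tag was among the libraries. A peak list holds no expression values, so the identity of the cells was not checked against marker genes.

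The 4 libraries enter only through 1 peak list (hg19 build), of which 1080 peaks lie on assembled chromosomes and 1145 have a distance to a TSS. Its score is a whole number per peak from the authors' peak calling, on a scale that is not stated, with a range of 13 to 355, a median of 62 and quartiles of 43 and 87. Widths had a median of 145 bp and quartiles of 119 and 210 bp, and the narrowest width, 107 bp, was shared by 104 peaks. No read counts or values of single libraries were analysed, so the depth is unknown and no value below has a spread between replicates. Whether 2 scores differ beyond the error between replicates could therefore not be tested.

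TGF-beta ligands are secreted in a latent complex, in which latent TGF-beta binding proteins such as LTBP3 tie the ligand to the extracellular matrix. Once released, a ligand brings type I and type II receptors together, often with the help of the co-receptors betaglycan (TGFBR3) and endoglin (ENG), and the receptors phosphorylate SMAD proteins that act on target genes in the nucleus. SMURF2, a ubiquitin ligase that marks SMADs and receptors for degradation, and SKI, a co-repressor that binds SMAD complexes on DNA, restrain the signal. In lung fibroblasts the TGF-beta branch is known for driving the change to contractile, matrix-producing myofibroblasts.

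The 6 peaks differed widely in score, from 34 to 204. SMURF2 scored 204, ENG 85, SKI 76 and 34, TGFBR3 44 and LTBP3 37, so 3 were at or above the median of the list and 1 was at or above the upper quartile. The median over the 6 peaks was 60, against 62 over the list. By position, 5 of the 6 lay in introns downstream of the TSS and the SMURF2 peak alone lay upstream, in an intergenic stretch. Over the list, 467 of 1386 peaks were in introns, and 58.9% of all peaks with a distance were downstream. TGFBR3 had the only promoter peak of the 6, defined here as a peak centre within 1 kb of a TSS. By that definition 333 of the 1145 peaks with a distance were promoter peaks. The call for TGFBR3 depends on the definition. With a window of 500 bp or by the authors' promoter class TGFBR3 had no promoter peak. With 5000 bp SMURF2 and LTBP3 had a promoter peak too. The plot of score against width shows that the 6 peaks did not group together.

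**Figure D1:**
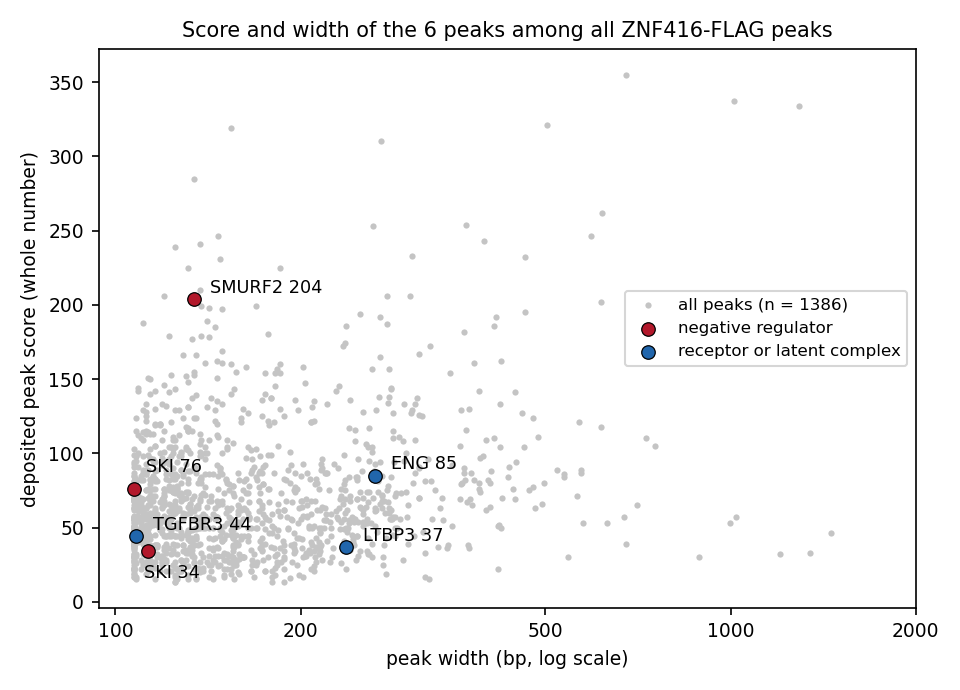
Width in bp (log scale) against the deposited score for all 1386 peaks (grey points), with the peaks of the negative regulators SMURF2 and SKI in red and those of the co-receptors TGFBR3 and ENG and of LTBP3 in blue, each with its score. The SMURF2 peak, at 204, stands above the other 5, which score between 34 and 85.

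Promoter sequences are shown for SMURF2, which had the strongest of the 6 peaks, and for TGFBR3, which had the only peak within 1 kb of a TSS, so that the sequence at the start sites beside these peaks can be read. They are from RefSeq (GRCh38.p14), where 4 of the 5 genes matched a promoter entry. Each is the 250 bases before an annotated start of the gene on the minus strand, 5′ to 3′, and other starts of the gene are not shown. Capitals mark the GC box GGGCGG on either strand. SMURF2 is at chr17:64662308-64662557 and TGFBR3 at chr1:91886152-91886401 in that build, and these positions are not comparable with the hg19 positions of the peaks.
SMURF2: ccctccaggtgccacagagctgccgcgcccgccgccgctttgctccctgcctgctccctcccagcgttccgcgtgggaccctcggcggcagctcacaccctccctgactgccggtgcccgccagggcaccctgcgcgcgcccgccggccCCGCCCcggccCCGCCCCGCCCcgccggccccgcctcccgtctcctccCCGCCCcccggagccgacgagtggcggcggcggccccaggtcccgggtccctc
TGFBR3: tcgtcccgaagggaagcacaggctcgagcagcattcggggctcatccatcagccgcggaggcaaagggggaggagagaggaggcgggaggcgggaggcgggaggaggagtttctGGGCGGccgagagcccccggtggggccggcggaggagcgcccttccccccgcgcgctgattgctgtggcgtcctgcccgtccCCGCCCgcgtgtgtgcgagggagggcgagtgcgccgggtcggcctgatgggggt

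Both windows were rich in G and C. The SMURF2 window was 82.0% G or C with 33 CG dinucleotides, and the TGFBR3 window was 73.6% with 28, against medians of 58.0% and 11 over 35116 promoter windows of the same length. The SMURF2 window held 4 matches to the GC box, 2 of which overlapped by 1 base, and the TGFBR3 window held 2, while 42.6% of all windows held at least 1. Neither peak reached its window by the authors' distances. The near edge of the SMURF2 peak was 2457 bp upstream of the TSS and that of the TGFBR3 peak 510 bp downstream, so the letters above are not the sequence under the peaks, which was not read here.

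Among the negative regulators, the SMURF2 peak lay on chromosome 17 from 62660883 to 62661016, centred 2524 bp upstream of the start of NM_022739. Its score of 204 put it at rank 25 of 1386, in the top 1.80% of the list, and at rank 4 of the 370 intergenic peaks. It was also close to a gene for an intergenic peak, since 21 of the 370 lay as near to a TSS or nearer, and their median distance was 22979.5 bp. At 134 bp it was narrow for its score. The 25 peaks that scored 204 or more had a median width of 270 bp, up to 1292 bp, and 3 of them were narrower than the SMURF2 peak.

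The SMURF2 peak was the only 1 of the 6 centred on an annotated repeat, an AluJb element, which is a short interspersed repeat. By the authors' detailed annotation, Alu elements held 76 peaks, with a median score of 58 and a median width of 133.5 bp. The SMURF2 peak was the third strongest of them, after peaks nearest to LINC00963 and MYOF. Within the 18 peaks on AluJb elements, whose median score was 63.5, the highest score was 254 and that of SMURF2 came next. The list as a whole had a median score of 62, and whether the repeat bears on the SMURF2 score was not tested. How reads that fit several copies of a repeat were treated is not given in the labels or file. A repeat was the detailed label of 19.4% of the peaks on chromosomes. Each peak has 1 such label, so peaks labelled there as a promoter or exon were not counted on repeats, Alu elements included. The peak of another gene closest to the SMURF2 peak on chromosome 17 was 172418 bp away, at PLEKHM1P1.

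SKI was the only member with 2 peaks. Both lay on chromosome 1 in intron 1 of 6 of NM_003036, from 2221331 to 2221437 with a score of 76 and from 2221699 to 2221811 with a score of 34, and 261 bp separated them. Their ranks were 462 and 1156. Of the 979 genes nearest to a peak, 880 had 1 peak and 81 had 2. Peaks with a neighbour within 1000 bp made up 10.8% of those on chromosomes (117 of 1080), in 64 neighbouring pairs with a median gap of 100 bp, and 26 of these pairs lay in introns with the same nearest gene.

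The SKI peaks were deep within the gene. They lay 61626 and 61997 bp downstream of the TSS, the largest distances among the 6 peaks. Peaks in first introns had a median distance of 2256 bp, and 6 of 218 lay farther than the stronger SKI peak, the weaker SKI peak among them. Both were narrow, at 107 bp, the minimum of the list, and 113 bp, and 17.3% of all peaks were no wider than the wider of them. Neither was centred on a repeat or a CpG island. The closest peak of another gene was 149447 bp away, at PRKCZ.

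Of the co-receptor genes, TGFBR3 had a peak of score 44 and width 108 bp on chromosome 1 from 92351091 to 92351198. It ranked 986, a score that 37 peaks shared, and its centre was 564 bp downstream of the start of NM_003243, the transcript with the nearest TSS. The same position is intron 2 of 17 of the transcript NM_001195684, so the peak lay beside a start site inside the body of another TGFBR3 transcript. It was the only 1 of the 6 centred on an annotated CpG island, a stretch rich in CG dinucleotides that often covers promoters. By the authors' detailed annotation, CpG islands held 67 peaks, 35 of them promoter peaks by distance, with a median score of 59. That annotation gives 1 label per peak, so peaks labelled there as a promoter or exon were not counted on islands. The 35 are therefore not a count of all promoter peaks on CpG islands. Among the 333 promoter peaks, whose median score was 61 and median width 135 bp, 35 were 108 bp wide or narrower. The nearest other peak, at EVI5, was 912234 bp away.

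ENG had the strongest peak of the co-receptors and the widest of the 6, with a score of 85 and a width of 264 bp (chromosome 9, 130600860 to 130601123). Its rank was 370 of 1386, and 106 of the 467 intronic peaks. By width it stood at the 86th percentile of the list. The peak lay in intron 2 of 14 of NM_001278138, 8455 bp downstream of that transcript's start. The distance to the starts of other ENG transcripts was not analysed. The next peak of another gene was 449486 bp away, at SLC2A8.

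The gene of the latent complex, LTBP3, had a peak of score 37 and width 237 bp on chromosome 11 from 65323506 to 65323742. It lay 2075 bp downstream of the start of NM_001130144, in intron 1 of 26 of NM_001164266, and ranked 1116. Its rank among intronic peaks was 368 of 467. LTBP3 was the only member with peaks of other genes within 100 kb. EHBP1L1 had peaks of score 68 and 25 in its intron 1, at 21242 and 20256 bp from the LTBP3 peak. TALAM1, a non-coding RNA antisense to MALAT1, had a peak of score 33 at 47616 bp. Of these 3 neighbours, only 1 scored above LTBP3.

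First introns held 46.7% of the 467 intronic peaks and second introns 18.2%. Among the 5 intronic peaks of the members, 3 lay in intron 1, at SKI and LTBP3, and 2 in intron 2, at TGFBR3 and ENG. No intronic peak of the members lay in a later intron.

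The negative regulators and the receptor and latent complex genes had 3 peaks each, from 2 and 3 genes, and their scores overlapped. The negative regulators scored 204, 76 and 34 (median 76) and the others 85, 44 and 37 (median 44). ENG thus scored above both SKI peaks, and LTBP3 and TGFBR3 above the weaker of them. The difference of 32 between the medians fell to 11 without SMURF2, and it was 96 with the strongest peak of each gene alone (204 and 76 against 85, 44 and 37), so its size rests on SMURF2 and on how the SKI peaks are counted. With 3 peaks a side, of which 2 share a gene and an intron, and no replicate values, the difference was not tested.

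Width and position overlapped as well. Peaks of negative regulators were 107, 113 and 134 bp wide, and those of the others 108, 237 and 264 bp, with TGFBR3 among the narrow ones. Distances were 2524, 61626 and 61997 bp for the negative regulators, with SMURF2 upstream and SKI downstream, and 564, 2075 and 8455 bp, all downstream, for the others. The median distance was 61626 bp against 2075 bp, and the first value rests on SKI alone. The plot of signed distances places these peaks beside the other genes of the pathway.

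**Figure D2:**
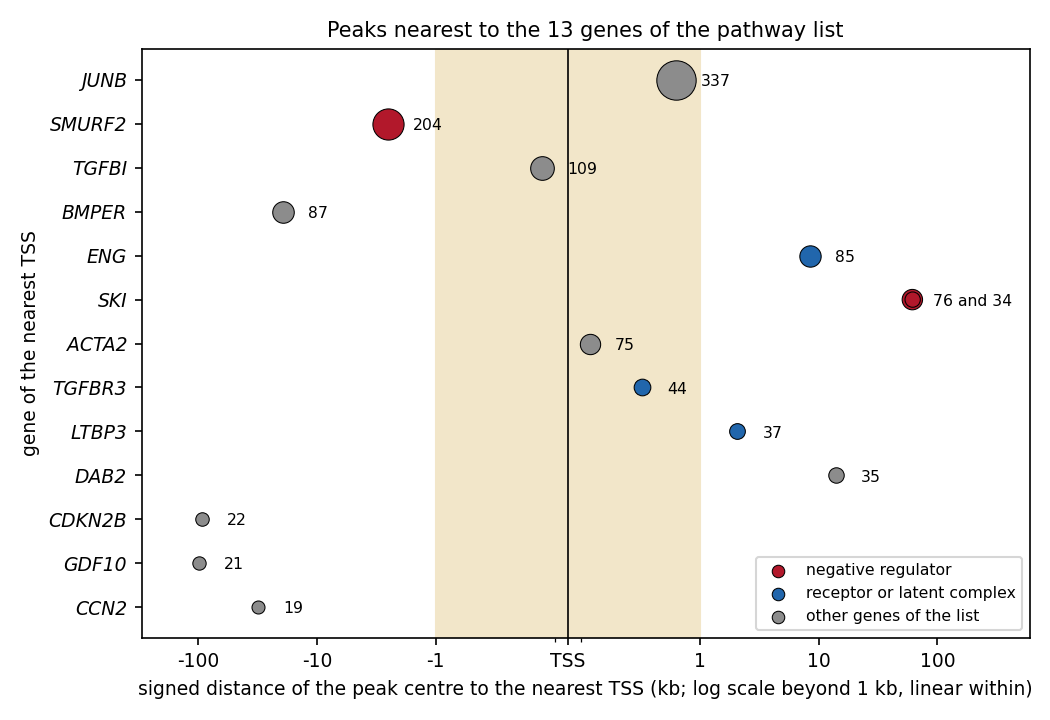
Signed distance of the peak centre to the nearest TSS in kb (negative is upstream, linear within 1 kb and log scale beyond) for the 14 peaks nearest to 13 genes of the pathway list. Point area grows with the score, which is printed beside each point, the shaded band is the promoter window of 1 kb, and red, blue and grey mark negative regulators among the members, the other members and other genes. Within the band are JUNB, TGFBI, ACTA2 and TGFBR3, while both SKI peaks lie farthest downstream, at 61626 and 61997 bp.

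To set the 5 genes beside others of the pathway, a list of 127 genes was sorted by role. It was drawn up with results of these data known and contains the members, so its counts support no excess. A peak was nearest to 13 of the 127 genes at any distance, against 3.66% of the 20056 protein-coding genes of the reference table (734 genes). Without the 5 members, 8 of 122 remained. A promoter peak was found at 4 of the 127 (TGFBR3 and the targets JUNB, TGFBI and ACTA2), where the share of all protein-coding genes was 1.34%. By the transcript in the annotation, 8 of the 127 hosted a peak in their body or promoter, against 2.87%. The highest score per gene had a median of 75 over the 13 genes and 55 over the 8 that are not members, and it was 63 over the 734 protein-coding genes.

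Among ligand genes, 1 of 28 was nearest to a peak, a count close to the share of 3.66% over all protein-coding genes. The gene was GDF10, a BMP-related factor. Its peak (chromosome 10, 48537459 to 48537638) scored 21, was centred on an MLT2B4 long terminal repeat and was 98383 bp upstream of the gene's TSS. None of the 3 TGF-beta ligand genes, TGFB1 included, was nearest to a peak, and no lack is read from so few genes. Of 12 genes for the latent complex and its activation, LTBP3 alone was nearest to a peak, and LTBP1, LTBP2 and LTBP4 were not. LTBP3 was chosen for having a peak, so no contrast within this family is read from the count.

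None of the 12 type I and type II receptor genes was nearest to a peak, among them TGFBR1, TGFBR2, ACVRL1 and BMPR2. A count of 0 of 12 is close to the share of 3.66% over all protein-coding genes. TGFBR3 and ENG, 2 of the 7 co-receptors, were chosen for having a peak, so no contrast between receptor types is read from these counts. No peak was nearest to any of the 6 receptor-regulated and common SMAD genes, SMAD2, SMAD3 and SMAD4 included, nor to the inhibitory SMAD6 and SMAD7. These counts go by the gene of the nearest TSS. Intron 2 of 5 of SMAD3-DT, the divergent transcript named for SMAD3 and not a gene of the list, held 2 peaks, with scores of 77 and 63 (chromosome 15, 67341016 to 67341186 and 67341422 to 67341533). They lay 15419 and 15043 bp downstream of the SMAD3-DT start, and their distance to the SMAD3 start was not analysed. Of the 9 genes that the list groups as signalling adaptors, which also include enzymes, 1 was nearest to a peak. This was DAB2, an endocytic adaptor that binds SMADs. It scored 35 and lay in intron 1 of 14 (chromosome 5, 39411037 to 39411169), 13979 bp downstream of the TSS.

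Of the 34 negative regulators outside the SMADs, 3 were nearest to a peak, beside a share of 3.66% over all protein-coding genes. SMURF2 and SKI are among the 3 and were chosen for having a peak, so no excess is read from this count. SMURF2 was the only 1 of 5 ubiquitin ligase genes, and its paralog SMURF1 was nearest to no peak. SKI was the only 1 of 4 co-repressor genes, and its paralog SKIL was nearest to none. Of the 18 extracellular antagonist genes in the list the only 1 was BMPER, which encodes a secreted BMP-binding protein. Its peak scored 87 and was 171 bp wide, and its intergenic position (chromosome 7, 33925268 to 33925438) was 19174 bp upstream of its TSS. With it, the negative regulators of the list that were nearest to a peak had highest scores of 204, 87 and 76, and none of their peaks was a promoter peak. The list is not complete. TSKU, WFIKKN1 and VASN, which encode extracellular proteins that bind ligands of this family, are outside it, and peaks nearest to them scored 172, 115 and 63. The TSKU peak was intergenic, 18756 bp upstream, and the WFIKKN1 peak was in intron 5 of RAB40C, 3704 bp upstream. These genes were named after their values were seen, and genes outside the list without a peak were not counted, so they support no excess. The other intracellular or membrane inhibitors had 0 of 7.

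Target genes had 5 of 17, beside a share of 3.66% over all protein-coding genes. Because the list was drawn up with results of these data known, this count supports no excess. JUNB, an AP-1 subunit gene, had a score of 337, TGFBI, a matrix protein gene, 109, and ACTA2, the smooth muscle actin gene, 75. All 3 were promoter peaks by the distance of 1 kb. The authors' annotation of the ACTA2 peak names the promoter of a FAS transcript, and ACTA2 is the gene of the nearest TSS, 168 bp away. The peaks nearest to CDKN2B, a cell cycle inhibitor gene, and CCN2, a matricellular protein gene, scored 22 and 19. They lay 93877 and 31524 bp upstream, the former in intron 4 of 8 of the antisense gene CDKN2B-AS1. A further target, CDKN1A, a cell cycle inhibitor gene, was counted by its annotation only. Its promoter held a peak of score 47 whose nearest TSS, 33 bp away, belongs to the non-coding RNA gene DINOL (chromosome 6, 36646240 to 36646367).

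**Figure D3:**
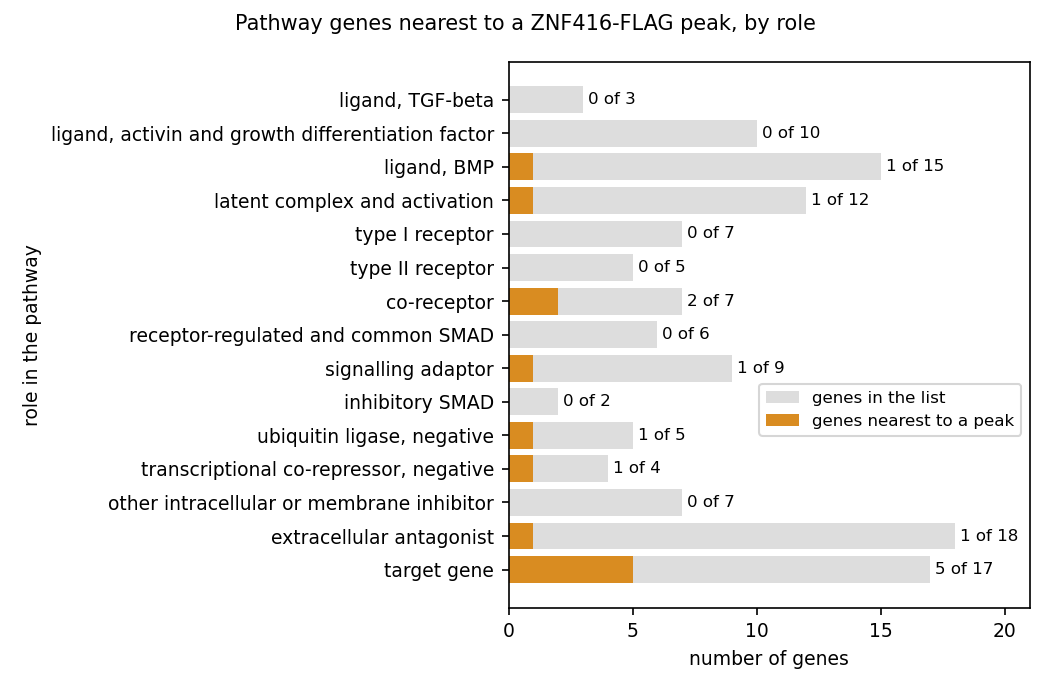
Number of genes per role in the pathway list (grey bars) and number nearest to a peak at any distance (orange bars), with both printed beside each bar. Most roles have 0 or 1 gene, beside a share of 3.66% over all protein-coding genes. SMURF2, SKI, LTBP3 and the 2 of 7 co-receptors are members chosen for having a peak. The list was drawn up with results of these data known, so the 5 of 17 target genes support no excess.

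For each member, the peak most like its strongest peak was sought among peaks of the same annotation class on chromosomes, as the smallest sum of differences in percentile of score, width and TSS distance. The closest match was that of SKI with ABLIM3, which encodes an actin-binding LIM protein, with a sum of 1.58 percentile points. The ABLIM3 peak scored 75, was 107 bp wide and lay 64574 bp downstream of the TSS in intron 4. For LTBP3 it was FNBP1 (score 38, width 244 bp, 1193 bp downstream, sum 6.89), and for TGFBR3 it was CIPC (score 46, width 110 bp, 919 bp downstream, sum 11.5). ENG and SMURF2 had less similar partners. A peak in an intron of KIFC3 nearest to MIR6772 (score 79, width 365 bp) matched ENG with a sum of 14.2. An intergenic peak nearest to FAM25A, also on an Alu element (score 137, width 133 bp), matched SMURF2 with a sum of 14.9. These likenesses cover 3 properties of 1 list and were not tested.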

How the data were processed

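One peak list for the whole series was analysed. Per the submitters' processing notes, Bowtie2, Picard, MACS2, deepTools and HOMER were used on hg19, without roles or versions. Per the file headers, HOMER annotated narrow peaks after the removal of blacklisted regions. The deposited score is 1 whole number per peak, on a scale that is not stated. How replicates and input entered the calling is not given in the sources used here. TSS distances, annotations and repeats are the authors'.

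Widths were end minus start plus 1, and tied scores took the best rank. The gene of each peak was matched by gene identifier (1140 of 1142) and hosts by transcript to RefSeq genes of GRCh38.p14, used for names and gene type only. Python 3.11.15 and pandas 2.3.3 were used, and the functions were tested on simulated data. No test was run. The members, the pathway list and the rule for named genes were chosen with earlier results of these data known. That rule takes all members, every list gene nearest to or hosting a peak, 13 named list genes whether or not they have one (1 is not reported here), neighbours within 100 kb and the most similar peak. LINC00963, MYOF, PLEKHM1P1, PRKCZ, SLC2A8, EVI5, SMAD3-DT, TSKU, WFIKKN1, VASN, SMAD6, LTBP2 and LTBP4 were named after their values were seen. Alternatives covered the score threshold, distance window, host gene, repeats and merging.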

Additional observations from a re-analysis of the deposited data

How the results depend on the processing

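The list pools its libraries, so leaving out a replicate could not be run. No paired analysis was possible because no value of a single library was analysed and no test was run. Of the 6 peaks of the members, 3 remained at or above the median score of 62 and 1 at or above the upper quartile of 87. Host gene assignment and merging of peaks within 1000 bp gave 5 each. The 13 pathway genes nearest to a peak became 7 at or above the median score, 4 at or above the upper quartile, 7 within 10000 bp of a TSS and 8 without the members. They stayed within 1.5 times the count within 100 kb (13), with host genes added (14) and without repeats (11). The 4 genes with a promoter peak became 2 within 500 bp and 2 by the authors' promoter class, and 6 within 5000 bp. By class these were TGFBI and ACTA2, the latter with a peak annotated to the promoter of FAS. The 8 hosts became 4 at or above the median score. The difference of 32 in median score between negative regulators and the others became 96 with the strongest peak of each gene, 11 without SMURF2 and 35.5 without ENG. The counts without the members, hosts above the median score and the last 3 differences were chosen after seeing the data. Fewer peaks or genes entered each stricter setting. The share of all protein-coding genes was not computed at the alternative settings, so no change in a count is read as particular to the pathway.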
